A study of Mus musculus with 6 samples.

Results

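Interleukins, cytokine receptors, TNF superfamily ligands and receptors, and the kinases and inhibitors of cytokine signalling were followed in activated CD4+ T cells that lacked UTX. The genes were taken by symbol from a deposited count table: names beginning with Il and a digit, Tnfsf, Tnfrsf, Csf and a digit, Tgfb followed by a digit or r, Ifngr, Ifnar, Lif, Osm, Socs, or Jak and a digit, and the single genes Lta, Ltb and Cish. Il2, Il2ra and Il12rb1 were set aside. This gave 50 genes of the 4162 in the table. They fell into 6 role groups: 10 secreted interleukins and hematopoietic cytokines, 6 TNF superfamily ligands, 7 TNF receptors, 20 interleukin, interferon and hematopoietic cytokine receptors, 2 TGF-beta receptors, and 5 Janus kinase and SOCS family genes.

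Helper T cells speak to other cells largely through these proteins. A cytokine binds a receptor made of private and shared chains, the Janus kinases attached to those chains phosphorylate STAT transcription factors, and proteins of the SOCS family, themselves induced by STATs, close the loop by inhibiting the receptor complex. TNF superfamily ligands sit mostly on the cell surface, and their receptors signal through TRAF adaptors to NF-kappa B.

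The libraries came from 3 UTX TCD mice and 3 WT mice of the B6 background. UTX TCD mice lack UTX, the histone H3 lysine 27 demethylase encoded by Kdm6a, in T cells. Not given in the sources used here: the transgene that drives the deletion, the deleted exons, and the age and sex of the mice. In both genotypes naive CD4+ T cells were isolated from the spleen with magnetic beads and activated for 48 h with anti-CD3 on the plate and anti-CD28 in the medium.

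Column totals ran from 8363326 to 9497542 counts in UTX TCD libraries and from 8823939 to 10288306 in WT libraries. Genes without a genotype difference were nearly missing from the table, in which 20 of 4118 tested genes had a log2 fold change within 0.1 of 0. Levels are given as CPM, counts scaled to one common library size over the listed genes, and so run higher than in a full library. Kdm6a had 188, 207 and 179 CPM in UTX TCD libraries, against 286, 281 and 281 CPM in WT libraries (log2 fold change -0.56 ± 0.09, edgeR adjusted p = 0.0029), counted over the whole gene and so including exons outside any deleted part. Of 16 T cell marker genes 7 had rows, with a summed level of 6994 to 8656 CPM in UTX TCD libraries and 6106 to 6511 CPM in WT libraries; among them Cd2, Cd28 and Bcl11b were higher, Lat and Thy1 lower, and Lck not called, while Cd4 and Cd3e were not analysed here. Thy1 stood at 42.9, 77.6 and 49.9 CPM in UTX TCD libraries, against 887, 718 and 820 CPM in WT libraries. Of the markers of other cells, Cd8b1 was higher (31.5, 56.2 and 40.8 CPM, against 11.6, 14.5 and 12.8 CPM), and Ccr7, of dendritic and naive T cells (984 to 2281 CPM, against 714 to 931 CPM), and Eomes, of NK cells (22.9 to 49.1 CPM, against 21.9 to 57.6 CPM), were not called. Of 13 markers of macrophages and monocytes, 9 of neutrophils and 9 of erythroid cells and platelets, 0 were among the genes analysed here, so these cells were not assessed, and the part of other cells in the results below was not tested. UTX TCD replicate 2 stood apart: the summed level of 30 interferon-stimulated genes was 7146, 11060 and 7126 CPM in UTX TCD replicates 1, 2 and 3, against 5930, 5709 and 6462 CPM in the WT libraries. Of 27 such genes tested, 24 were highest in that library. Gbp2, which was not called, held much of each sum (4165.8, 4090.5 and 4085.5 CPM, against 3502.3, 3402 and 3953.6 CPM). Irf7 was at 18.4, 179 and 20.5 CPM, against 7.33, 5.86 and 7.95 CPM. Slfn1 was at 250, 677 and 300 CPM, against 117, 88.8 and 119 CPM. Irf7 and Slfn1 were called higher, with every UTX TCD library above every WT library, while Ifih1 and Isg20 were called lower.

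In UTX TCD cells 5 of 6 listed ligand genes of the TNF superfamily and a block of interleukin-1 receptor family genes were lower. Receptor chains for interleukin-7 and the interleukin-6 family, together with 3 feedback inhibitors of JAK-STAT signalling, were higher. Whichever library was left out, calls held for Il1rl1 and Il18rap in the block, Socs2 among the inhibitors, and the called ligands apart from Tnfsf4. Of 48 genes that passed the low-count filter, edgeR called 20 higher and 18 lower (adjusted p under 0.05), and 10 did not pass. Among all 4118 tested genes of the table, 68.1% were called, 41.1% as higher and 27% as lower. The share of the cytokine genes called higher, 41.7%, lay next to the background, and the share called lower was 37.5%. Their median log2 fold change (UTX TCD over WT, as throughout) was 0.25, against -0.15 over all tested genes. The groups did not overlap in 36 of the 48 genes, a smaller share than the 85.8% among all tested genes. At least 2-fold differences with a call numbered 4 higher and 10 lower.

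**Figure D1:**
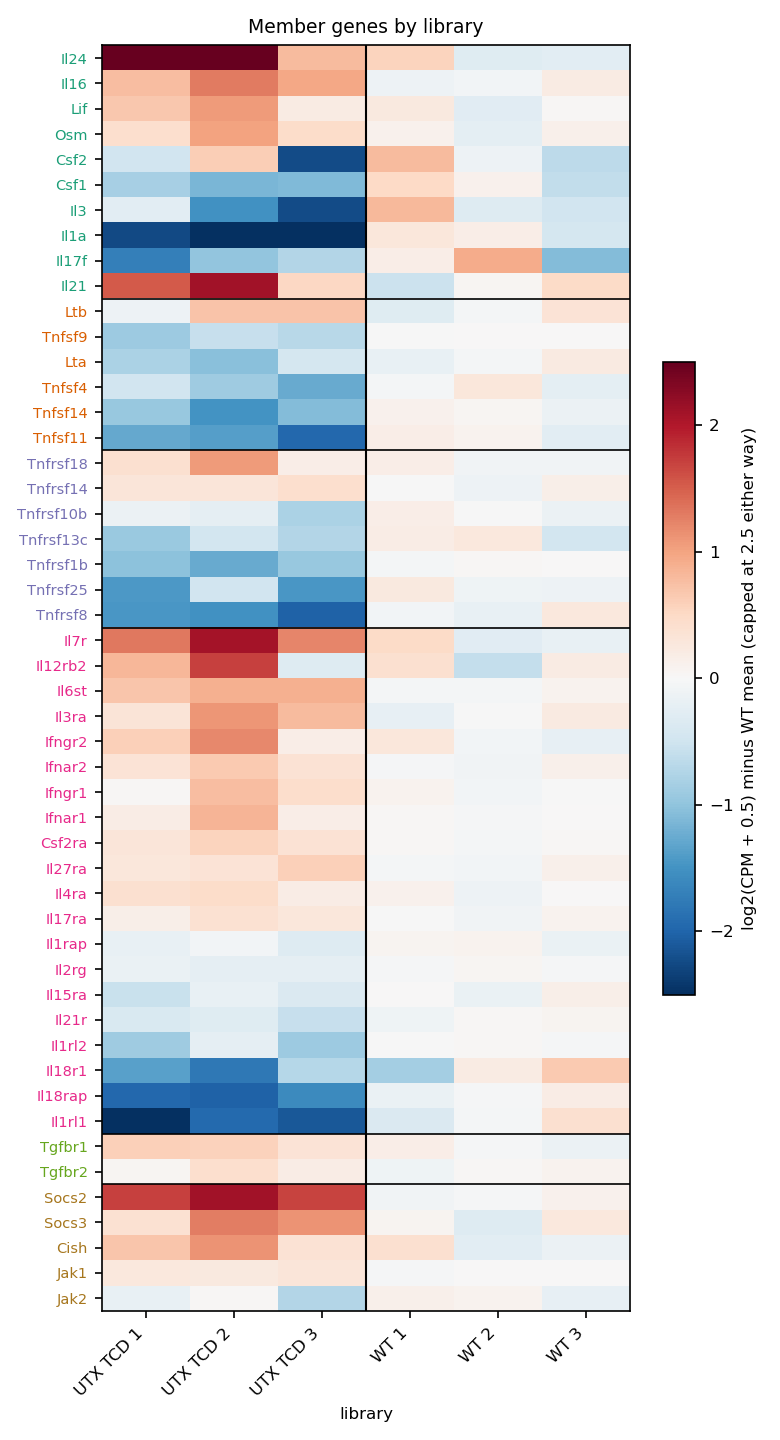
Level of each of the 50 genes in each library, as log2(CPM + 0.5) minus the WT mean of the gene (colour, capped at 2.5 in either direction), with UTX TCD libraries left of the line and WT libraries right of it. Rows are ordered by role group (coloured names) and fold change. In 20 of the 48 tested genes the highest level was that of UTX TCD replicate 2.

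These counts depended on single libraries. Leaving out WT replicate 1, 2 or 3 gave 8 higher and 12 lower, 4 and 9, and 13 and 15 genes, and the calls over the whole table shrank in the same fits to 812 and 402, 730 and 351, and 1195 and 544. Without UTX TCD replicate 2, 18 of the genes were higher and 17 lower, where 38.8% and 35.3% of the table's genes were. A set of 12 genes kept its call under all 14 alternatives tried. Higher in this set were Il16, Il6st, Il7r and Socs2, and lower were Il18rap, Il1a, Il1rl1, Tnfrsf1b, Tnfrsf8, Tnfsf9, Tnfsf11 and Tnfsf14.

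**Figure D2:**
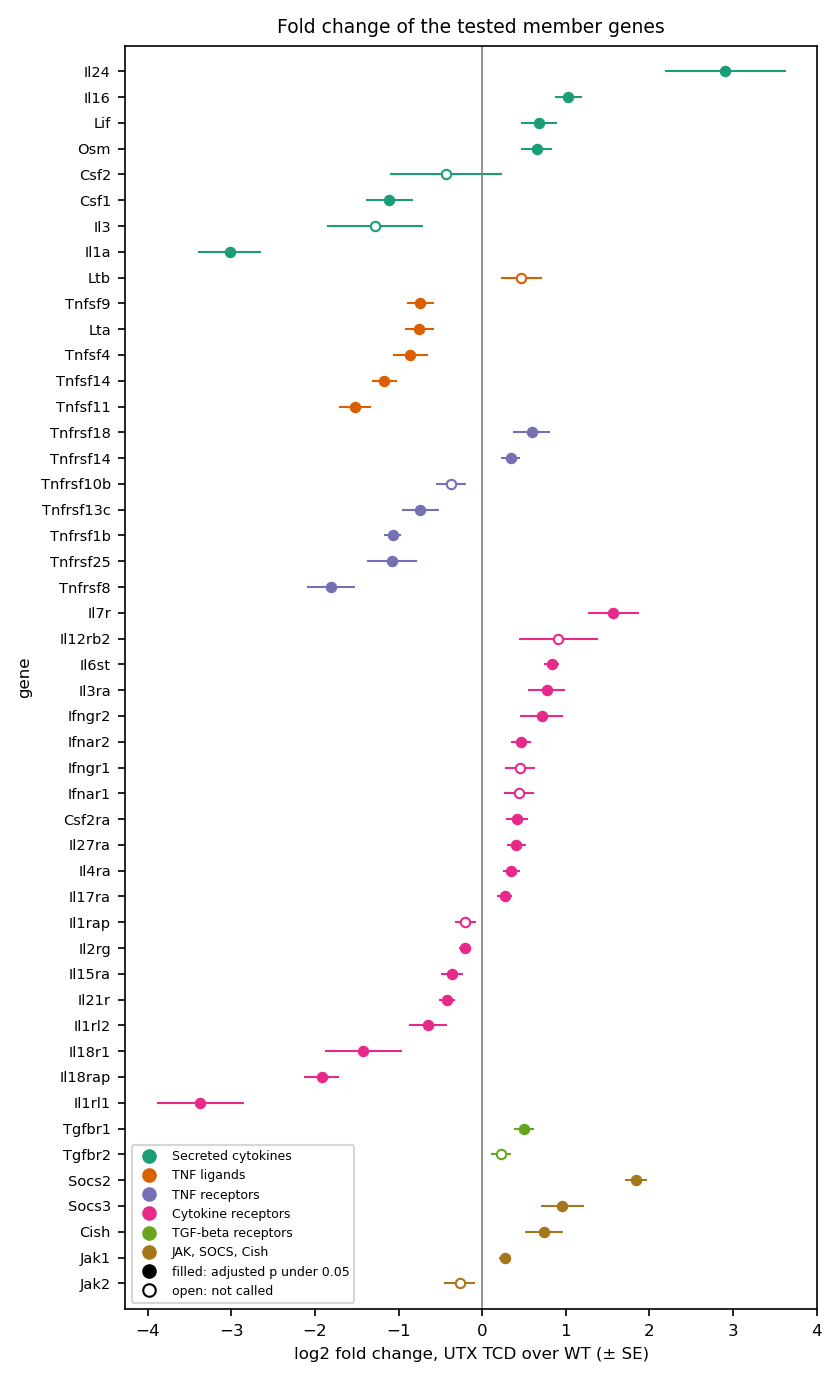
Log2 fold change of the 48 tested genes, UTX TCD over WT, with its standard error, by role group. Filled points passed an adjusted p of 0.05 in edgeR; TNF ligands are left of 0 apart from Ltb, which did not pass.

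Secreted cytokines moved both ways: 4 of 8 tested genes rose (50%) and 2 fell (25%), shares near the 41.1% and 27% of all tested genes. Il16, which encodes a chemoattractant that binds CD4, had 199, 290 and 231 CPM in UTX TCD libraries, against 107, 111 and 135 CPM in WT libraries. Every UTX TCD library lay above every WT library, and the rise was 2.04-fold (log2 fold change 1.03 ± 0.16, edgeR adjusted p = 0.003). Il1a, the gene of the alarmin interleukin-1 alpha, had 1.57, 0.74 and 1.25 CPM in UTX TCD libraries, against 11.5, 10.6 and 6.81 CPM in WT libraries. This is a fall of 8.13-fold on 7 to 13 counts per UTX TCD library (log2 fold change -3.02 ± 0.38, edgeR adjusted p = 0.0017).

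Lif and Osm, neighbouring genes of cytokines that signal through the receptor chain gp130, both rose. Lif, which encodes leukemia inhibitory factor, had 516, 675 and 371 CPM in UTX TCD libraries, against 382, 264 and 329 CPM in WT libraries, and the groups overlapped (0.68 ± 0.22 on the log2 scale, edgeR adjusted p = 0.03). Osm, the gene of oncostatin M, had 55.7, 83.9 and 57 CPM, against 44.6, 35.1 and 45.5 CPM, with no overlap (0.65 ± 0.19, edgeR adjusted p = 0.023). In both genes UTX TCD replicate 2 was the highest library, and without it their log2 fold changes were 0.44 and 0.42, of which Lif did not pass. Lif also did not pass without WT replicate 2 (0.54) or 3 (0.68), nor Osm without WT replicate 1 (0.70) or 2 (0.54).

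The colony-stimulating factors and interleukin-3 were less uniform. Csf1, the macrophage colony-stimulating factor gene, had 19.5, 15.7 and 16.1 CPM in UTX TCD libraries, against 49.9, 38 and 22.8 CPM in WT libraries, and fell by 1.11 ± 0.28 on the log2 scale (edgeR adjusted p = 0.015). It did not pass without WT replicate 1 (-0.83) or 2 (-1.09). Csf2, which encodes GM-CSF, ranged from 3.13 to 25.8 CPM in UTX TCD libraries and from 10.4 to 28.9 CPM in WT libraries, and its groups overlapped widely (-0.43 ± 0.67, edgeR adjusted p = 0.55). Its sign turned when WT replicate 1 (0.08) or UTX TCD replicate 3 (0.04) was left out. Il3, a growth factor gene in the same 20.0 kb of chromosome 11 as Csf2, had 14.6, 5.81 and 3.33 CPM, against 31, 13.9 and 12.4 CPM, and did not pass (-1.28 ± 0.57, edgeR adjusted p = 0.071). It passed without UTX TCD replicate 1 (-2.05), with the replicate block (-1.38, edgeR adjusted p = 0.0095), with limma-voom (-1.46) and with DESeq2 (-1.23).

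3 further cytokine genes had few counts. Il24, of the interleukin-10 family, rose with 51, 53 and 12 counts in UTX TCD libraries, against 10, 3 and 3 counts in WT libraries (log2 fold change 2.91 ± 0.72, edgeR adjusted p = 0.014), but not without WT replicate 2 (2.64). Il21, the gene of a cytokine of follicular helper cells, had 20, 36 and 9 counts, against 2, 5 and 8 counts, and Il17f, of the Th17 lineage, had 1, 5 and 7 counts, against 18, 31 and 4 counts. Neither passed the filter. With no filter Il21 was at 2.11 (edgeR adjusted p = 0.031) and Il17f at -1.97 (0.06). Over the role group, higher genes numbered 1 without WT replicate 2, and lower genes 1 without WT replicate 1 or 2 and 3 without WT replicate 3 or UTX TCD replicate 1.

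The TNF superfamily ligand genes taken by symbol were mostly lower in UTX TCD cells: 5 of 6 fell and none rose. As genes without a genotype difference were nearly missing from the table, the 6 do not stand for the whole family. Of ligand genes with other symbols, Cd70 and Tnf are given below as neighbours, and Cd40lg and Fasl are not reported here. The table as a whole had 27% of its genes called lower. Tnfsf11 encodes RANKL, the ligand of RANK on dendritic cells and osteoclast precursors. It had 298, 280 and 186 CPM in UTX TCD libraries, against 814, 777 and 609 CPM in WT libraries, so that the highest UTX TCD value was under the lowest WT value. The fall was 2.87-fold (log2 fold change -1.52 ± 0.19, edgeR adjusted p = 0.0018). Tnfsf14 encodes LIGHT, a ligand of HVEM and the lymphotoxin beta receptor. It had 60.3, 41.5 and 55 CPM, against 126, 121 and 106 CPM, and fell by 1.17 ± 0.15 on the log2 scale (edgeR adjusted p = 0.0019), again with no overlap.

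The costimulatory ligand genes Tnfsf4 and Tnfsf9 were also lower. Tnfsf4, the OX40 ligand, had 99.7, 74.4 and 57.2 CPM in UTX TCD libraries, against 134, 169 and 117 CPM in WT libraries (log2 fold change -0.86 ± 0.21, edgeR adjusted p = 0.014), and did not pass without WT replicate 2 (-0.71). Tnfsf9, the 4-1BB ligand, had 14.8, 18.7 and 17.3 CPM, against 28, 28.4 and 28.3 CPM (-0.74 ± 0.16, edgeR adjusted p = 0.0089). The WT libraries of Tnfsf9 differed from each other by less than 1 CPM, and every UTX TCD library was below them.

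The lymphotoxin genes parted. Lta, the lymphotoxin alpha gene, had 149, 124 and 189 CPM in UTX TCD libraries, against 227, 248 and 302 CPM in WT libraries, and fell by 0.75 ± 0.17 on the log2 scale (edgeR adjusted p = 0.01). Ltb encodes the chain with which lymphotoxin alpha forms the membrane-bound trimer. It had 206, 369 and 369 CPM, against 182, 217 and 284 CPM, with UTX TCD replicate 1 inside the WT range, and did not pass (0.47 ± 0.25, edgeR adjusted p = 0.11). Ltb passed without UTX TCD replicate 1 (0.70) and with the replicate numbers as a block (0.44, edgeR adjusted p = 0.032). In CPM per kilobase of exon, Tnfsf11 averaged 114 in UTX TCD and 328 in WT libraries, Ltb 208 and 150, and Lta 111 and 187. On that scale Tnfsf11 was above Ltb in WT libraries and below it in UTX TCD libraries.

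**Figure D3:**
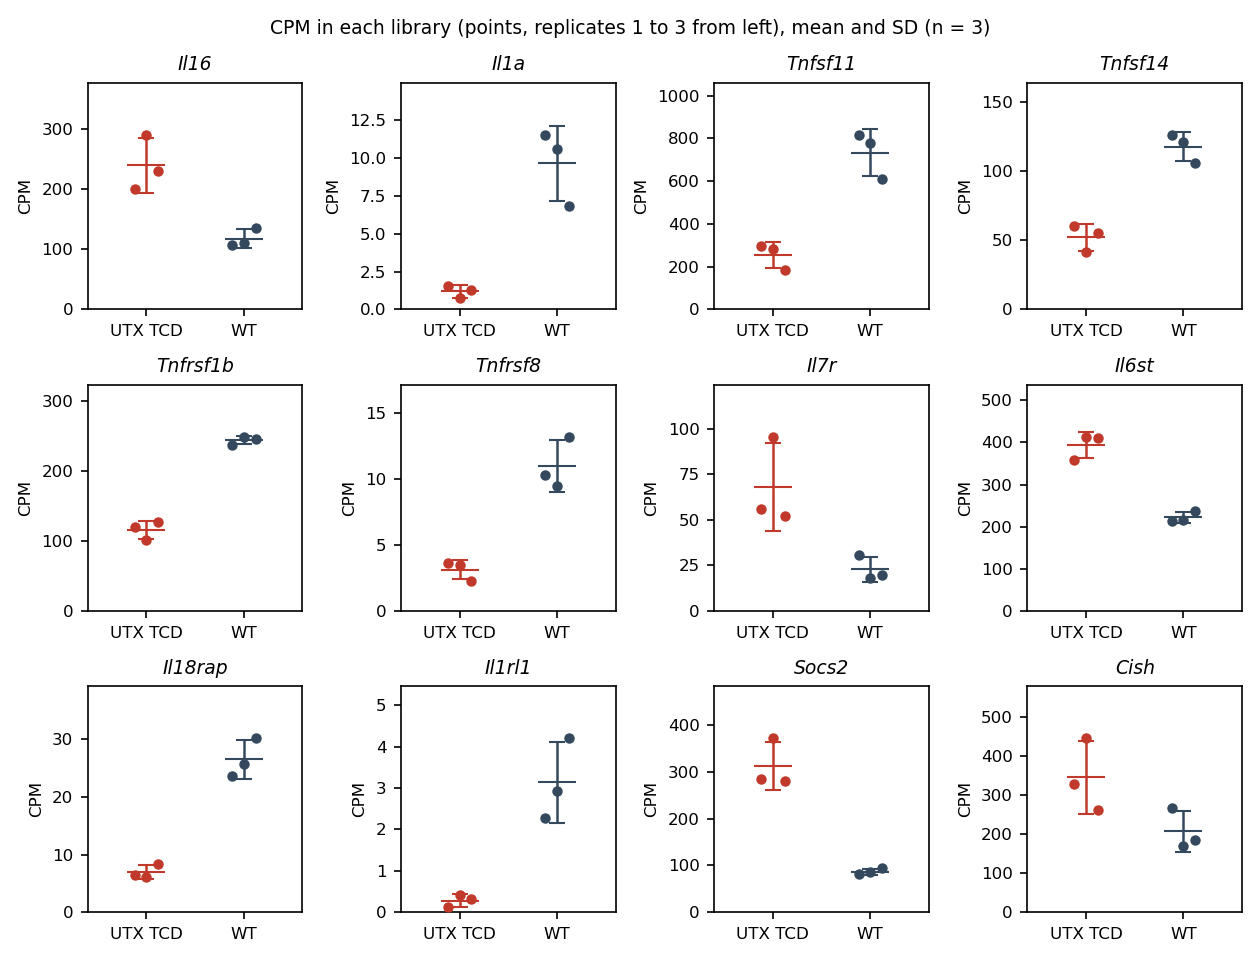
CPM of 12 genes in each library (points, replicates 1 to 3 from left to right), with the mean and SD of 3 libraries, UTX TCD left of WT. In all but Cish the points of the genotypes do not overlap. The 12 were chosen with earlier results known, and 85.8% of all tested genes had no overlap either.

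TNF receptors split into 2 higher (28.6%) and 4 lower (57.1%) of 7, against 41.1% and 27% of all tested genes. Tnfrsf1b encodes TNFR2, the TNF receptor of activated and regulatory T cells. It had 119, 102 and 127 CPM in UTX TCD libraries, against 237, 249 and 246 CPM in WT libraries. The difference of 2.10-fold was far wider than the spread within either genotype (log2 fold change -1.07 ± 0.10, edgeR adjusted p = 6.6e-04). Tnfrsf8, the CD30 gene beside it on chromosome 4, was lower too, at 3.62, 3.49 and 2.29 CPM, against 10.3, 9.44 and 13.2 CPM (-1.81 ± 0.29, edgeR adjusted p = 0.0034).

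Tnfrsf25 encodes the death domain receptor DR3. It had 10.5, 21 and 10.4 CPM in UTX TCD libraries, against 34.8, 27.3 and 26.8 CPM in WT libraries, with UTX TCD replicate 2 nearest to WT (log2 fold change -1.08 ± 0.30, edgeR adjusted p = 0.019). It was at -1.51 without that replicate, and did not pass without WT replicate 1 (-0.95) or 2 (-1.14). Tnfrsf13c encodes the BAFF receptor, a B cell receptor that T cells also carry, and had 26.4, 36.9 and 30.6 CPM, against 58.1, 61.6 and 37 CPM (-0.74 ± 0.22, edgeR adjusted p = 0.023). Its highest UTX TCD library reached nearly the lowest WT library, and the call was lost when WT replicate 1 (-0.66) or 2 (-0.61) or UTX TCD replicate 1 (-0.62) or 3 (-0.72) was left out.

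Of 14 B cell marker genes 4 had rows. Their summed level was 498, 631 and 802 CPM in UTX TCD libraries, against 473, 505 and 576 CPM in WT libraries, and Cd79a was not analysed here. Igkc and Fcer2a were lower (-0.84 ± 0.30 and -0.89 ± 0.29, edgeR adjusted p = 0.04 and 0.029), and Ighm and Ighd, at 0.38 and 0.66, did not pass. The part of B cells in the Tnfrsf13c difference was not tested. In such bulk samples fewer cells of a type and less RNA per cell cannot be told apart.

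Tnfrsf18 and Tnfrsf14 were the higher receptor genes. Tnfrsf18, which encodes GITR, had 384, 609 and 328 CPM in UTX TCD libraries, against 328, 277 and 276 CPM in WT libraries (log2 fold change 0.59 ± 0.22, edgeR adjusted p = 0.044). Replicate 2 was the high UTX TCD library, without which the value was 0.27. The call was lost without WT replicate 1 (0.67), 2 (0.54) or 3 (0.54), with limma-voom (0.54) and with gap-centred scaling (0.51). Tnfrsf14, the HVEM gene, had 64.7, 64.6 and 70.2 CPM, against 51.8, 47.8 and 57.6 CPM (0.34 ± 0.11, edgeR adjusted p = 0.031), and lost its call under gap-centred scaling (0.27) and without WT replicate 1 (0.33) or 2 (0.28) or UTX TCD replicate 3 (0.30). Tnfrsf10b, which encodes the TRAIL receptor of the mouse, had 85.3, 81 and 54.6 CPM, against 107, 93.9 and 85.4 CPM, and did not pass (-0.37 ± 0.18, edgeR adjusted p = 0.084). It passed with the replicate block (-0.39, edgeR adjusted p = 0.035) and with gap-centred scaling (-0.45). Higher receptor genes of this family numbered 0 without WT replicate 1 or 2, and 1 without WT replicate 3 or UTX TCD replicate 3. Lower ones numbered 2 without WT replicate 1 or 2.

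Among the 20 interleukin, interferon and hematopoietic cytokine receptors, 9 rose (45%), 7 fell (35%) and 4 did not pass, against 41.1% higher and 27% lower among all tested genes. The rise of Il7r was the steepest in this group. Il7r encodes the interleukin-7 receptor alpha chain, which naive and memory T cells need to survive. It had 56.2, 95.7 and 52.3 CPM in UTX TCD libraries, against 30.9, 18 and 19.5 CPM in WT libraries, so that every UTX TCD library exceeded every WT library (2.98-fold, log2 fold change 1.57 ± 0.30, edgeR adjusted p = 0.0057). Without UTX TCD replicate 2 the value was 1.24 (edgeR adjusted p = 0.0055).

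Il6st encodes gp130, the chain shared by the receptors of interleukin-6, interleukin-27, leukemia inhibitory factor and oncostatin M. It had 357, 414 and 411 CPM in UTX TCD libraries, against 214, 216 and 238 CPM in WT libraries (log2 fold change 0.83 ± 0.09, edgeR adjusted p = 0.0012). Il27ra, its partner in the interleukin-27 receptor, had 214, 222 and 267 CPM, against 170, 168 and 192 CPM (0.41 ± 0.11, edgeR adjusted p = 0.018). Both genes kept their groups apart, and Il27ra did not pass without WT replicate 1 (0.38) or 2 (0.37).

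Receptors of the common gamma chain family went both ways. Il21r, the interleukin-21 receptor gene, had 432, 454 and 377 CPM in UTX TCD libraries, against 523, 572 and 592 CPM in WT libraries, and fell by 0.42 ± 0.10 on the log2 scale (edgeR adjusted p = 0.011). It did not pass without WT replicate 2 (-0.41). Chosen after their values were seen, Il2rg, the shared gamma chain, had 698, 671 and 676 CPM, against 775, 813 and 771 CPM (-0.21 ± 0.07, edgeR adjusted p = 0.038), Il15ra was at -0.36 ± 0.13 (edgeR adjusted p = 0.043), and Il4ra, on the other side, at 0.35 ± 0.10 (edgeR adjusted p = 0.023). The small differences of Il2rg and Il15ra were not called under RLE scaling (-0.16 and -0.32), upper-quartile scaling (-0.13 and -0.28) or the replicate block (-0.21 and -0.37, edgeR adjusted p = 0.076 and 0.059), nor Il15ra with DESeq2 (-0.32). Without WT replicate 1, 2 or 3 they did not pass (-0.22, -0.19 and -0.22 for Il2rg and -0.36, -0.45 and -0.29 for Il15ra), and nor did Il4ra (0.40, 0.29 and 0.35). Without UTX TCD replicate 3, Il2rg (-0.20) and Il15ra (-0.37) did not pass, and without UTX TCD replicate 1, Il15ra (-0.27) did not.

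Of the 4 interferon receptor genes Ifnar2 and Ifngr2 were called higher. Ifnar2, a chain of the type I interferon receptor, had 83.9, 104 and 84.8 CPM in UTX TCD libraries, against 64.9, 61.8 and 72.1 CPM in WT libraries (log2 fold change 0.46 ± 0.12, edgeR adjusted p = 0.017), and did not pass without WT replicate 1 (0.44) or 2 (0.41). Ifnar1, the other chain, had 256, 409 and 254 CPM, against 229, 220 and 228 CPM. Its groups did not overlap, yet it did not pass (0.44 ± 0.18, edgeR adjusted p = 0.059), and it passed without UTX TCD replicate 1 (0.56), 2 (0.17) or 3 (0.56), with upper-quartile scaling (0.53) and with DESeq2 (0.49). Chosen after their values were seen, the interferon gamma receptor genes Ifngr1 and Ifngr2 were at 0.45 ± 0.18 (edgeR adjusted p = 0.052) and 0.71 ± 0.26 (0.043). Without UTX TCD replicate 2 they were at 0.24 and 0.37 and neither passed. Ifngr2 also did not pass without WT replicate 1 (0.86), 2 (0.66) or 3 (0.60), without UTX TCD replicate 1 (0.78), with gap-centred scaling (0.63) or with limma-voom (0.65). Ifngr1 passed without UTX TCD replicate 1 (0.62), with RLE (0.50) or upper-quartile scaling (0.53) and with DESeq2 (0.49). The summed interferon-stimulated genes were highest in the same UTX TCD replicate, and their part in these values was not tested.

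Other chains differed by less or varied more. Il3ra, the interleukin-3 receptor alpha chain, had 34, 58.5 and 47.4 CPM in UTX TCD libraries, against 23.5, 26.8 and 31.7 CPM in WT libraries (log2 fold change 0.77 ± 0.22, edgeR adjusted p = 0.02), and did not pass without WT replicate 1 (0.67) or 2 (0.75). Il12rb2, the signalling chain of the interleukin-12 receptor and a marker of Th1 cells, had 127, 237 and 57.1 CPM, against 94.1, 47.3 and 82.5 CPM. Its groups overlapped (0.91 ± 0.47, edgeR adjusted p = 0.11), the value was 0.29 without UTX TCD replicate 2, and it passed without UTX TCD replicate 3 (1.28). Of the remaining receptor genes, named after their values were seen, Csf2ra (0.42 ± 0.13, edgeR adjusted p = 0.026) and Il17ra (0.27 ± 0.09, edgeR adjusted p = 0.035) were higher, though neither passed when WT replicate 1, 2 or 3 was left out, and Il1rap was not called (-0.20 ± 0.13, edgeR adjusted p = 0.18). Il17ra was also not called without UTX TCD replicate 3 (0.26), with gap-centred scaling (0.20) or with the replicate block (0.27, edgeR adjusted p = 0.059).

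The deepest falls among receptors were in genes of the interleukin-1 receptor family on chromosome 1. Il1rl1 encodes ST2, the interleukin-33 receptor of Th2 and regulatory T cells. It had 1, 4 and 3 counts in UTX TCD libraries, against 23, 27 and 37 counts in WT libraries (0.121, 0.423 and 0.313 CPM, against 2.28, 2.93 and 4.20 CPM). All WT libraries exceeded all UTX TCD libraries (log2 fold change -3.37 ± 0.52, edgeR adjusted p = 0.0031). Il18rap, the accessory chain of the interleukin-18 receptor, had 6.39, 6.13 and 8.33 CPM, against 23.5, 25.7 and 30.1 CPM, a fall of 3.80-fold with no overlap (-1.92 ± 0.21, edgeR adjusted p = 0.0011).

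Il18r1, the ligand-binding chain of the same receptor, had 4.58, 3.28 and 7.40 CPM in UTX TCD libraries, against 6.74, 14.5 and 19.9 CPM in WT libraries. WT replicate 1 lay inside the UTX TCD range (log2 fold change -1.42 ± 0.46, edgeR adjusted p = 0.028), and the call was lost when WT replicate 2 (-1.38) or 3 (-1.06) or UTX TCD replicate 1 (-1.36) or 2 (-1.19) was left out. Il1rl2, the interleukin-36 receptor gene, had 12.9, 20.6 and 12.6 CPM, against 24.1, 24.8 and 23.7 CPM (-0.65 ± 0.23, edgeR adjusted p = 0.036). Its call was lost under RLE (-0.61) and upper-quartile scaling (-0.57), without WT replicate 1 (-0.66), 2 (-0.64) or 3 (-0.67), or without UTX TCD replicate 1 (-0.54) or 3 (-0.53), and its value was -0.93 without UTX TCD replicate 2. For the whole receptor group, leaving out WT replicate 1, 2 or 3 gave 2 higher and 4 lower, 2 and 2, and 5 and 3 genes. Leaving out UTX TCD replicate 1 or 3 gave 10 higher and 4 lower genes each time, and RLE or upper-quartile scaling gave 4 lower.

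The position of these genes was shared as well as their direction. Il1rl2, Il1rl1, Il18r1 and Il18rap lie in one 227 kb stretch of chromosome 1, from 40324610 to 40551705 in GRCm38. All 4 were called lower. The stretch was drawn from the first of them to the last, and holds no other protein-coding gene. As genes without a genotype difference were nearly missing from the table, the 4 do not stand for the whole locus. Grouped by gaps of at most 250 kb, 19 of the 50 genes fell into 8 such neighbourhoods. In the others with several calls, Osm and Lif on chromosome 11 were higher, Tnfsf9 and Tnfsf14 on chromosome 17 lower, and Tnfrsf1b and Tnfrsf8 on chromosome 4 lower. Cd70, another TNF superfamily ligand gene that lies between Tnfsf9 and Tnfsf14, was lower too (log2 fold change -2.60 ± 0.49, edgeR adjusted p = 0.0057), as was Tnf between Ltb and Lta (-1.37 ± 0.11, edgeR adjusted p = 4.7e-04). On chromosome 16 Ifnar2 and Ifngr2 were higher, with Ifnar1 not called. Neighbours did not always move together: Il4ra was higher and Il21r lower within 81.5 kb of chromosome 7. Cd70 and Tnf had rows, while Il10rb and Gm21970, protein-coding genes in the chromosome 16 stretch, had none. Neighbours beyond these stretches were not analysed here, so these groups are a description.

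**Figure D4:**
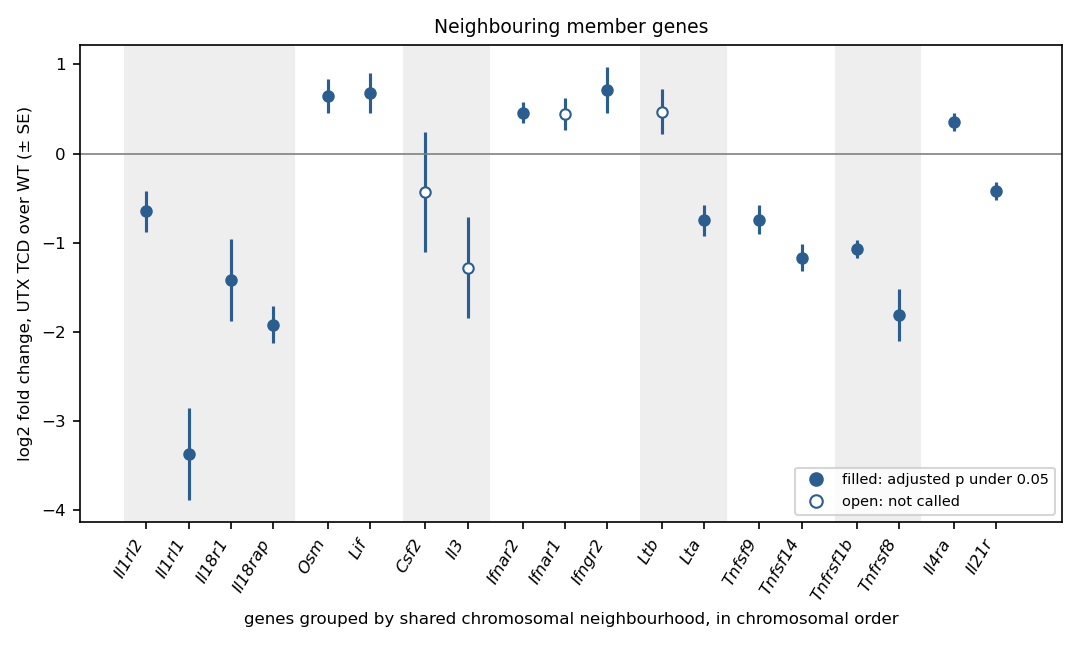
Log2 fold change (UTX TCD over WT, with its standard error) of the 19 genes that share a neighbourhood with another of the 50, in chromosomal order and shaded by neighbourhood. Filled points passed an adjusted p of 0.05; the 4 genes of the chromosome 1 neighbourhood at the left are all below 0.

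Both TGF-beta receptor chains were measured. Tgfbr1, the kinase chain that phosphorylates SMAD factors, had 137, 136 and 115 CPM in UTX TCD libraries, against 102, 89.7 and 82.5 CPM in WT libraries, and rose by 0.50 ± 0.12 on the log2 scale (edgeR adjusted p = 0.011). It did not pass without WT replicate 2 (0.48). Tgfbr2, the ligand-binding chain, had 200, 262 and 222 CPM, against 180, 198 and 207 CPM, with overlapping groups (0.23 ± 0.12, edgeR adjusted p = 0.1), and passed without UTX TCD replicate 1 (0.32). Without WT replicate 2 neither of this pair was called, and without UTX TCD replicate 1 both were.

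Of the 5 Janus kinase and SOCS family genes 4 were called higher in UTX TCD cells, where 41.1% of all tested genes were: the inhibitors Socs2, Socs3 and Cish and the kinase gene Jak1. Of these, Socs2 kept its call whichever library was left out. Socs2 had the largest rise of this group. Its product restrains growth hormone and STAT5 signalling. It had 284, 371 and 281 CPM in UTX TCD libraries, against 81.6, 85.4 and 93.8 CPM in WT libraries, and every UTX TCD library lay far above every WT library (3.59-fold, log2 fold change 1.84 ± 0.13, edgeR adjusted p = 4.6e-04).

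Socs3, the inhibitor that binds gp130, had 35.7, 66.9 and 60.2 CPM in UTX TCD libraries, against 28.7, 21.9 and 32.9 CPM in WT libraries, with no overlap (log2 fold change 0.96 ± 0.26, edgeR adjusted p = 0.017). The call was lost without WT replicate 1 (0.98) or 2 (0.81). Cish, a STAT5 target whose product dampens interleukin-2 and T cell receptor signals, had 330, 446 and 263 CPM, against 269, 170 and 185 CPM. UTX TCD replicate 3 fell just below WT replicate 1 (0.74 ± 0.23, edgeR adjusted p = 0.027), and the call was lost without WT replicate 2 (0.61) or 3 (0.65) or UTX TCD replicate 2 (0.50).

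The Janus kinase genes differed little. Jak1 had 1365, 1355 and 1416 CPM in UTX TCD libraries, against 1122, 1146 and 1154 CPM in WT libraries, a small rise with tight replicates (log2 fold change 0.27 ± 0.07, edgeR adjusted p = 0.016) that did not pass without WT replicate 1 (0.26), 2 (0.27) or 3 (0.28). Jak2 had 1703, 1981 and 1171 CPM, against 2115, 2052 and 1668 CPM, and its groups overlapped (-0.27 ± 0.19, edgeR adjusted p = 0.21). Higher genes of this group numbered 2, 1 and 2 without WT replicates 1, 2 and 3. Per kilobase of exon, Jak2 averaged 322 CPM in UTX TCD and 387 CPM in WT libraries, and Il2rg 286 and 329 CPM. The other values at such levels on that scale were Tnfrsf18 in UTX TCD libraries (289 CPM) and Tnfsf11 in WT libraries (328 CPM). Below them were Ltb in UTX TCD libraries (208 CPM) and Tnfrsf18 in WT libraries (193 CPM).

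STATs bind the palindrome TTCNNNGAA. Promoters of the inhibitor genes Cish and Socs3 are shown because such sites are the known route of their feedback. RefSeq windows (GRCm38.p6) from 250 bases before to 50 after a transcript's start were found for 42 of the 50 genes, 50 windows in all. Socs2 had no such window. The stretches below run 5′ to 3′ on the strand of the gene, with matches to TTCNNNGAA in capitals. That of Cish covers chr9:107296409-107296688 on the plus strand and runs 30 bases past the start. Those of Socs3 (chr11:117969367-117969616, minus strand) and of Il18r1 (chr1:40465756-40466005, plus strand), a lower gene shown beside them, end before it. In GENCODE M21 Cish begins at 107296026, Socs3 (minus strand) at 117970047 and Il18r1 at 40465552, so these stretches lie inside the annotated genes.
Cish: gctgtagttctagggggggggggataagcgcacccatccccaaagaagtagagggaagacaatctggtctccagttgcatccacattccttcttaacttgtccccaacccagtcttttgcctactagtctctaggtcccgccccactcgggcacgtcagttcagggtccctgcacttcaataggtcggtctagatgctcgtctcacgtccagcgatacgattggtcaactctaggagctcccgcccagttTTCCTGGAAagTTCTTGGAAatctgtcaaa
Socs3: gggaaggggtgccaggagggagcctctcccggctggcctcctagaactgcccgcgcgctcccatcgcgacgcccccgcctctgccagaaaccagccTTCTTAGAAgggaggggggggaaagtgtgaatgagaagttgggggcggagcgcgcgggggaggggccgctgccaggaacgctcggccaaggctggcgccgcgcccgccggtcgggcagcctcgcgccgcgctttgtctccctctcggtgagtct
Il18r1: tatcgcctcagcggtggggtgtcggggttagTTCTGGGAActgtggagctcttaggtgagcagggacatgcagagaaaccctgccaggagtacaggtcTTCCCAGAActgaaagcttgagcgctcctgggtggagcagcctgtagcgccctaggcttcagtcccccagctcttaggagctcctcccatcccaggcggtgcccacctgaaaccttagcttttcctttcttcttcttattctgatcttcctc
Cish held 2 matches, of which the first begins at the RefSeq start, Socs3 had 1 and the Il18r1 window shown had 2. RefSeq gives Il18r1 3 windows, and the other two, at earlier starts, held 0 matches. The motif, read on both strands, was in 27.8% of 18 windows of higher genes, 19% of 21 windows of lower genes and 27.3% of 11 windows of genes without a call. It was in 8.3% of all 32851 RefSeq windows. Of 15 matches in the cytokine gene windows 1, the first at Cish, shares bases with a match to another motif searched, the NFAT core. The NFAT core GGAAAA was in 22% of the cytokine gene windows and 23.4% of all windows, the AP-1 motif TGANTCA in 12% and 7.81%, the hypoxia response element core GCGTG in 44% and 32.4%, and an NF-kappa B motif in 8% and 0.411%. A match is a string in a window and not evidence of binding.

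Genes around these pathways were read from lists that hold none of the 50. Their counts are to be read beside the 41.1% higher and 27% lower among all tested genes. Of 29 other JAK-STAT genes 12 had rows and were tested, with 6 higher (50%) and 2 lower (16.7%). Bcl2, a survival gene downstream of interleukin-7 and STAT5, was at 610, 933 and 671 CPM in UTX TCD libraries, against 201, 202 and 224 CPM in WT libraries (log2 fold change 1.82 ± 0.16, edgeR adjusted p = 5.9e-04). Irs2, which encodes an adaptor of insulin and interleukin-4 receptors, was also higher, at 0.90 ± 0.19. Stat4, which carries the interleukin-12 signal, was lower at -0.90 ± 0.30 (edgeR adjusted p = 0.031), with UTX TCD replicate 2 at 176 CPM near the WT range of 193 to 239 CPM, and the phosphatase gene Ptpn11 was lower at -0.35 ± 0.12.

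Of 34 TNF receptor adaptor and NF-kappa B genes 14 were tested, with 2 higher (14.3%) and 4 lower (28.6%). Bcl3 and Birc2 rose, by 0.96 ± 0.25 and 0.51 ± 0.15 on the log2 scale. Nfkbid, Nfkb1 and Traf2 fell, by 0.47 ± 0.12, 0.27 ± 0.08 and 0.24 ± 0.08. Of 26 SMAD pathway genes 9 were tested, with 7 higher (77.8%) and 1 lower (11.1%), among them the activin receptor gene Acvr1b at 0.73 ± 0.13, Smurf1 at 0.46 ± 0.09, Smad4 at 0.30 ± 0.08 and the integrin gene Itgav at -0.34 ± 0.11. Medians of these 3 lists were 0.44, -0.19 and 0.60, where all tested genes had -0.15.

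UTX TCD replicate 2 weighed on several of these values. It was the highest library in 20 of 48 genes (41.7%), and in 32.8% of all tested genes. Without it the median log2 fold change of the 50 genes' tested members was 0.11 in place of 0.25. Csf2 moved furthest, to -1.32, followed by Il12rb2, Tnfrsf25, Il1rl1, Ifngr2, Il7r and Tnfrsf18. Tnfsf11, Tnfrsf8, Il6st and Socs2 changed by less than 0.2, at -1.61, -1.90, 0.78 and 1.69.

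**Figure D5:**
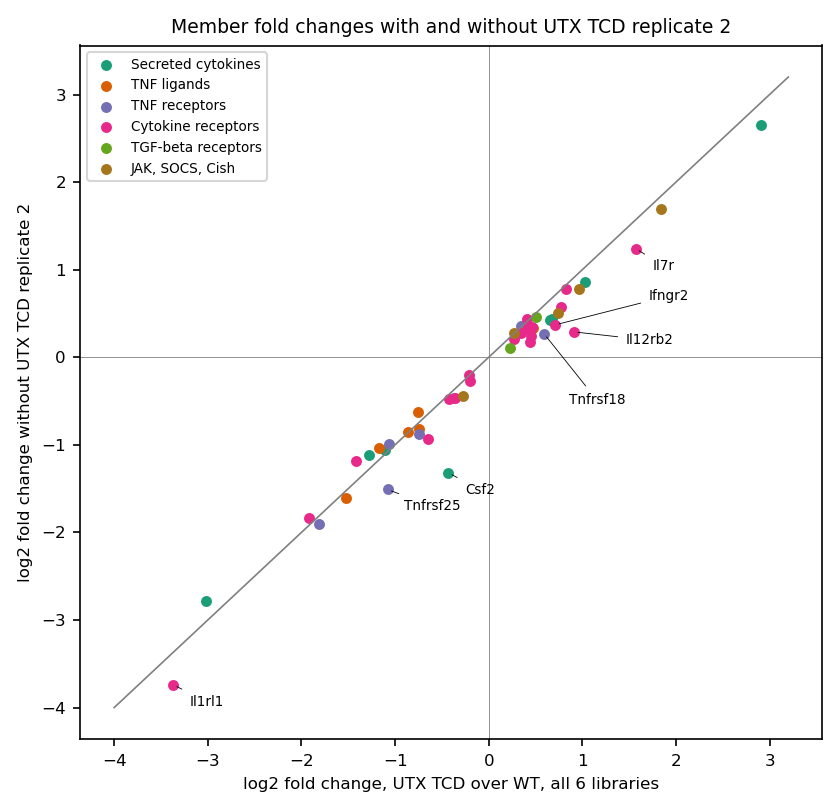
Log2 fold change (UTX TCD over WT) of the 48 tested genes without UTX TCD replicate 2 (vertical axis) against that with all 6 libraries (horizontal axis); points on the diagonal did not change. Names mark the genes that moved by 0.3 or more, and Csf2 moved furthest, to -1.32.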

How the data were processed

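The authors deposited raw counts of reads per gene for 6 libraries, with no normalization. FastQC, HISAT2 and HTSeq with the build mm10 were used, per the submitters' processing notes. Not given in the sources used here: tool versions, annotation, strandedness of counting and how the 4162 genes came to be listed. Without a strand setting, reads of genes that overlap on opposite strands cannot be told apart. In GENCODE M21 these include Il16 with Stard5, Il12rb2 with Serbp1, Il1a with Gm14023 and Tnfsf9 with Gm11110. The same holds for antisense genes at Cish, Il4ra, Il1rap, Csf2, Il3ra, Il21, Tnfrsf18 and Il16. Ifnar2 with Gm21970 and Il2rg with Gm20489 overlap on the same strand, where a strand setting would not separate them. Columns were tied to samples by genotype and number.

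The main test was edgeR 4.0.16's quasi-likelihood F test (R 4.3.3) on genotype alone, with TMM scaling, the default filter (minimum count 10, minimum total 15), which left out 44 genes, and Benjamini-Hochberg adjustment over all 4118 tested genes. Few listed genes had a fold change near 0, and adjustment over such genes is milder than over a full transcriptome. Genes were called at an adjusted p under 0.05. The standard error is the absolute log2 fold change over the square root of F. The fit was tested on simulated data first. There 200 genes were changed, up and down alike, and the rest left without a difference. The deposited table is unlike that setting, so the simulation does not test the scaling on these data. Each library comes from a separate mouse, and replicates differed beyond sampling noise. Alternatives were RLE, upper-quartile and gap-centred scaling, no filter, DESeq2 1.42.0, limma-voom 3.58.1, a replicate block, 22028 protein-coding genes counted as tests, and leaving out each library.

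The genes, lists and tests were chosen with earlier results of these data known. Named are, per role group, up to 5 called genes in each direction by p and up to 2 uncalled ones by level, all JAK and SOCS genes, and up to 3 per direction of each pathway list. A gene that this rule names is not reported here.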

Additional observations from a re-analysis of the deposited data

How the results depend on the processing

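Depth limits genes such as Il1rl1 and Il17f, with few counts in UTX TCD libraries, and Il24 and Il21, with few in WT libraries. Between same-numbered libraries of the genotypes, correlations of deviations were 0.28, -0.28 and 0.18 for numbers 1, 2 and 3. Between differently numbered ones they were -0.42 to 0.2. With 3 libraries per genotype these values cannot tell whether the numbers pair the mice. With the replicate block 20 of the cytokine genes were higher and 18 lower, 35 of the 38 calls were kept, and 1 TNF ligand, Ltb, was higher where none was. Over single genes and the 14 alternatives, 539 values kept direction and call, 112 lost the call, 19 gained it and 2 changed sign: Csf2, at 0.08 when WT replicate 1 was left out and at 0.04 when UTX TCD replicate 3 was (-1.32 to 0.08 over the libraries left out).

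When p-values were adjusted as if all 22028 annotated protein-coding genes had been tested, 4 cytokine genes were higher and 8 lower, and 625 and 296 in the whole table. By role group that left 1 higher and 1 lower secreted cytokine, 3 lower TNF ligands, 0 higher and 2 lower TNF receptors, 2 higher and 2 lower cytokine receptors, 0 higher TGF-beta receptors and 1 higher JAK or SOCS gene. The construction of that alternative, with more tests counted, accounts for these losses. Gap-centred scaling, which puts the emptiest point of the fold changes (0.08) at 0, left 0 higher TNF receptors, and limma-voom 1. RLE and upper-quartile scaling each left 4 lower cytokine receptors. The table's lower genes numbered 725 after upper-quartile scaling and 1832 after gap-centring, so that 70.6% and 45.8% of its calls were higher, against 60.4% with TMM. For the cytokine genes that share was 59.5%, 45.7% and 52.6%.

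With 1 library left out, 4 to 23 cytokine genes were higher and 9 to 17 lower (730 to 1824 and 351 to 1458 in the table), and the median log2 fold change was 0.11 to 0.29. By role group the ranges were 1 to 5 higher and 1 to 3 lower secreted cytokines, 0 to 1 higher and 4 to 5 lower TNF ligands, and 0 to 2 higher and 2 to 4 lower TNF receptors. They were 2 to 10 higher and 2 to 6 lower cytokine receptors, 0 to 2 higher TGF-beta receptors and 1 to 4 higher JAK or SOCS genes. Where no cause is named, it was not tested.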
